A study of Arabidopsis thaliana with 4 samples.

Results

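The 43 loci described here encode the machinery by which Arabidopsis roots take up, sense, move and store iron. They were chosen by name, with earlier results of these data known, as rows of the 28642 loci in the gene table. They comprise 7 uptake genes, 13 regulators, 3 loci of the IRON MAN (IMA) peptide family, 10 genes of metal chelation and long-distance transport, 6 genes of vacuolar and other metal transport and 4 ferritins. RNA from whole roots was sequenced in 2 biological replicates each of the wild type (WT), accession Wassilewskija (Ws), and of *atx1setm*. The *atx1setm* line is also in the Ws background, lacks the native H3K4 methyltransferase ATX1 through the *atx1-1* allele and carries an *ATX1* transgene without methyltransferase activity. The labels give seedlings of 10 d and RNA extraction at 8 to 10 d, grown at 21°C under 16 h of light and 8 h of darkness without an iron treatment named for either genotype.

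In Arabidopsis, iron is reduced at the root surface by a ferric chelate reductase and carried into the cell by a divalent metal transporter. The genes for both are switched on under iron shortage by the bHLH protein FIT together with bHLH proteins of subgroup Ib, whose genes are in turn under bHLH proteins of subgroup IVc and bHLH121. The ubiquitin ligase BTS and its relatives restrain this cascade, and IMA peptides counter BTS. Inside the plant, nicotianamine and citrate keep iron soluble, vacuolar carriers sequester metals, and ferritins hold iron in plastids.

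The 4 libraries held 38574293 to 46439122 exon reads. *ATX1* itself (AT2G31650) had 731 and 388 exon reads in the WT against 475 and 270 in the mutant, and reads of the transgene would count at the same locus. Its intron reads were 0 and 2 in the WT against 44 and 43 in the mutant, and the cause was not tested. Levels are given as CPM (counts scaled to library size and TMM), always in the order replicate 1 and replicate 2, and log2 fold changes are *atx1setm* against WT with the SE of the fit. Of lists of tissue markers, 8 of 9 root hair markers and 3 of 3 hairless epidermis markers were lower in *atx1setm* at an unadjusted p under 0.05 in edgeR's quasi-likelihood test. In either direction, 0 of 4 endodermis, 0 of 4 xylem, 0 of 3 phloem, 0 of 3 root cap and 0 of 6 green shoot markers passed. By that rule 4.93% of all genes tested were higher and 4.78% lower, so 0 in lists this short does not show unchanged tissue. The lists were chosen with earlier results of these data known, so the counts are not independent of those results. The authors' own list of lower genes holds some of the root hair markers. All 4 endodermis markers had a log2 fold change below 0 (median −0.31). They summed to 248 and 263 CPM in Ws and to 157 and 243 CPM in *atx1setm*. The summed root hair markers were at 999 and 1030 CPM in Ws and at 303 and 300 CPM in *atx1setm*. The summed green shoot markers varied within each genotype, at 198 and 343 CPM in Ws and at 124 and 398 CPM in *atx1setm*. In bulk roots, fewer cells of a type and less RNA per cell cannot be told apart.

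Of the 43 members, 41 had enough reads to be tested. At an unadjusted p under 0.05 in the quasi-likelihood test fitted over all 20714 genes, 10 members were higher in *atx1setm*, 3 were lower and 28 did not pass, whereas 4.93% of all genes tested were higher and 4.78% lower by the same rule. A gene that passes, in what follows, is one past this unadjusted threshold. As the members were chosen with earlier results known, the shares over all genes stand beside their counts as description only. After Benjamini-Hochberg adjustment for 20714 genes, 0 members had an adjusted p under 0.05 by that test, as had 0.0% of all genes. By edgeR's exact test, 7 members were higher and 0 lower at an adjusted p under 0.05, beside 1.69% and 2.23% of all genes, and by DESeq2, 10 were higher and 0 lower, beside 1.46% and 1.75%. Both *atx1setm* libraries lay above both Ws libraries in 22 of 41 members and below them in 7, against 19.6% and 20.0% of all genes tested, and the genotypes overlapped in 12. The median log2 fold change was 0.42 over the members and −0.01 over all genes tested. The 10 higher members were *IRT1*, *FRO2*, *FRO3*, *bHLH39*, *BHLH100*, the 3 IMA loci, *NAS2* and *FRD3*, and the 3 lower ones were *FRO4*, *YSL3* and *FER1*. The fold changes were not uniform within a role, as the plot of fold changes by role shows.

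**Figure D1:**
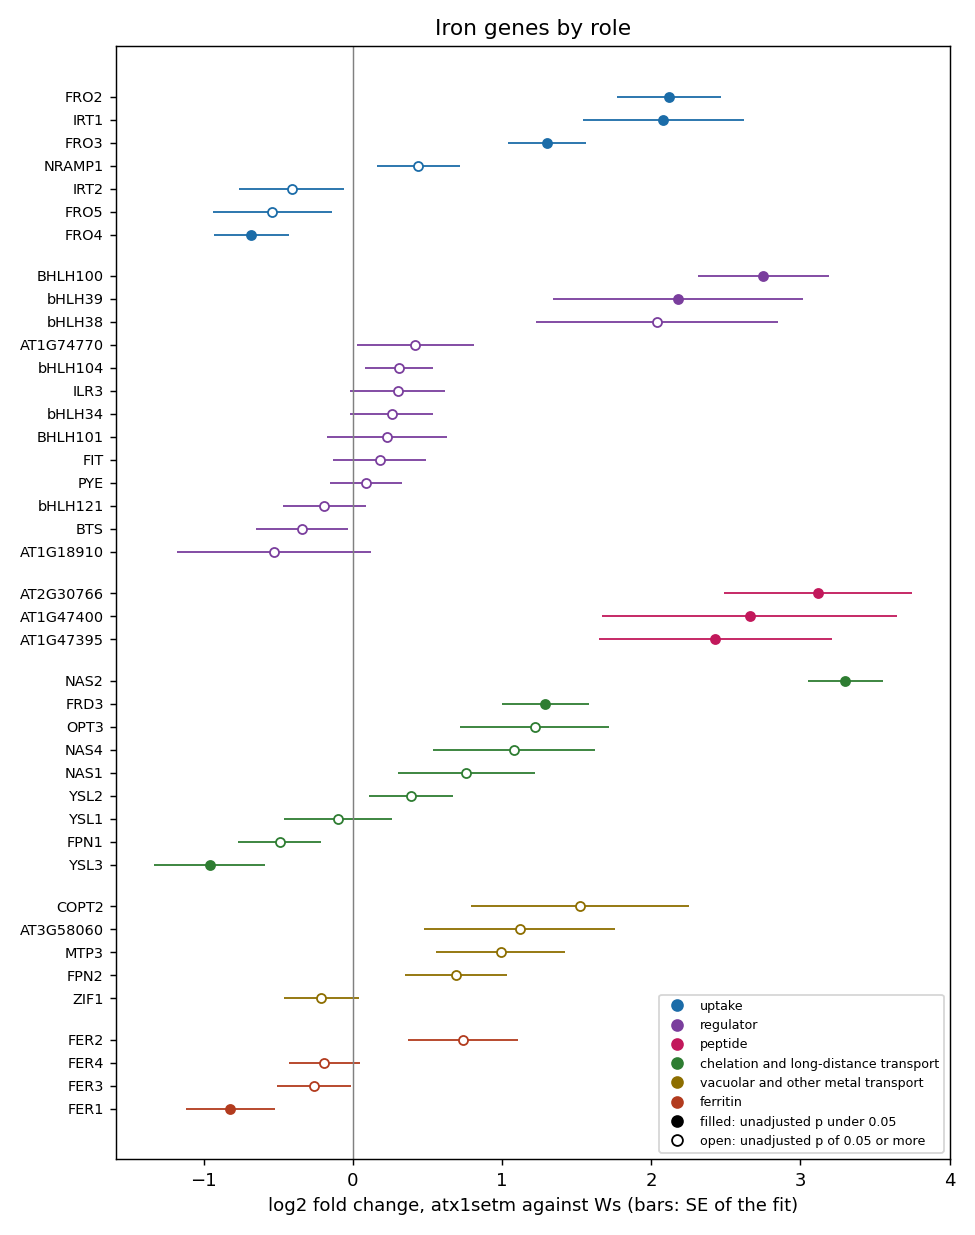
Log2 fold change of each of the 41 tested members, *atx1setm* against Ws, with the SE of the quasi-likelihood fit as bars and roles by colour; filled points mark the 13 members with an unadjusted p under 0.05. *NAS2* (3.30), the 3 IMA loci (2.43 to 3.12) and *BHLH100* (2.75) lie farthest to the right, and *YSL3* (−0.96) and *FER1* (−0.82) farthest to the left.

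The IMA loci are shown by sequence because their coding sequences end alike, which is also where reads of the close copies could be confused. AT1G47400 and AT1G47395 encode 50 residues each and AT2G30766 encodes 47, and the RefSeq annotation of TAIR10.1 gives no symbol to them. Their coding sequences are printed from 5′ to 3′ with the last 17 codons and the stop codon in capitals.

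AT1G47400: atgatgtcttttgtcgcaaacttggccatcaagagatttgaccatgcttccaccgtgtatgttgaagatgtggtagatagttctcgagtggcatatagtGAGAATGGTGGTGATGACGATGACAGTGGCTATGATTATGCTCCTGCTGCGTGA

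AT1G47395: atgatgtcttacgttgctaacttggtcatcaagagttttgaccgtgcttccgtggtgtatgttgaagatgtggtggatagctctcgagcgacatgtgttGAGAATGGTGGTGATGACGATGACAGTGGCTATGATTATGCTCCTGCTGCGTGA

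AT2G30766: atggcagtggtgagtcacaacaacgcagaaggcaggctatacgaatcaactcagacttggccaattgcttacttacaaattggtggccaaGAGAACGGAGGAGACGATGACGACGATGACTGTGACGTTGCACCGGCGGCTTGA

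The capital stretch of 54 bases was identical in AT1G47400 and AT1G47395, and AT2G30766 had the same base as either at 37 of the 54 positions. These 2 loci are neighbours on chromosome 1 (TAIR10, 17385717 to 17386186 and 17383034 to 17383408), with 2308 bases between them, and AT2G30766 lies on chromosome 2 from 13107909 to 13108863. Reads had 50 bases, and 98.6% of the 50-base windows of AT1G47400 and 98.7% of those of AT1G47395 occurred once in the reference genome.

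All 3 IMA loci were higher in *atx1setm*, from very low levels in the WT. AT1G47395 was at 0.507 and 1.41 CPM in Ws and at 2.44 and 7.82 CPM in *atx1setm*. AT1G47400 was at 0.365 and 0.847 CPM in Ws and at 1.05 and 6.57 CPM in *atx1setm*. AT2G30766 had only 4 and 5 reads in Ws and 28 and 48 reads in *atx1setm*. At each locus both mutant libraries lay above both WT libraries, and *atx1setm* replicate 2 stood well above replicate 1. The log2 fold changes were 2.43 (SE 0.78) for AT1G47395, 2.66 (SE 0.99) for AT1G47400 and 3.12 (SE 0.63) for AT2G30766, with an adjusted p = 0.411, 0.490 and 0.198 in edgeR's quasi-likelihood test. Without *atx1setm* replicate 2 the log2 fold change of AT1G47400 was 0.83 and no longer passed, nor did it in either fit of RPKM, whereas AT1G47395 (1.38) and AT2G30766 (2.53) still passed without that library, and without Ws replicate 2 the values were 3.37 for AT1G47400, 3.33 for AT1G47395 and 3.47 for AT2G30766. By the coordinates of the gene table, AT2G30766 shares 313 bases with AT2G30760, a locus with 5 and 0 reads in the WT against 5 and 11 reads in the mutant. In the RefSeq annotation it shares 639 bases with AT2G30760 and 572 bases with *CYP71A13* (AT2G30770), which had 17 and 12 reads in the WT against 23 and 9 reads in the mutant. Both neighbours lie on the opposite strand, and without a stated strand the reads of the overlaps cannot be assigned to one gene. Corrected for exon length, AT1G47400 ran at 0.574 and 0.479 times the level of AT1G47395 in Ws and at 0.343 and 0.671 times in *atx1setm*, so their ratio overlapped between the genotypes.

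Among the uptake genes, the transporter and the reductase that form the main route of iron entry were both higher in the mutant. *IRT1* (AT4G19690; chromosome 4, 10707426 to 10709015), the major ferrous iron transporter of the root epidermis, was at 56.2 and 146 CPM in Ws and at 340 and 515 CPM in *atx1setm*. Both mutant libraries were above both WT libraries, although the WT libraries differed from each other too. Its log2 fold change was 2.08 (SE 0.54, adjusted p = 0.302, quasi-likelihood test), and it was 1.55 and no longer passed without Ws replicate 1, and was 2.94 without Ws replicate 2. *FRO2* (AT1G01580), the ferric chelate reductase that supplies IRT1, was at 30.1 and 52.1 CPM in Ws and at 191 and 166 CPM in *atx1setm*. The genotypes were far apart, with a log2 fold change of 2.12 (adjusted p = 0.145, SE 0.35, quasi-likelihood test) that stayed between 1.78 and 2.59 with any library left out. *FRO3* (AT1G23020), a reductase gene of the same family linked to mitochondria, was at 32.2 and 39.6 CPM in Ws and at 78.8 and 98.3 CPM in *atx1setm*. Here too the libraries separated by genotype, with a log2 fold change of 1.30 (adjusted p = 0.193, SE 0.26, quasi-likelihood test), but did not pass without Ws replicate 1 (1.16).

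Among the members, the values of the related genes *IRT2*, *FRO4* and *FRO5* lay below 0. *FRO1*, a related reductase gene outside the members, had a log2 fold change of 0.95 (SE 0.35). *IRT2* (AT4G19680), a transporter gene 2609 bases from *IRT1* on the same chromosome, was at 11.4 and 15 CPM in Ws and at 7.52 and 12.3 CPM in *atx1setm*. These ranges overlapped, and the log2 fold change was −0.41 (SE 0.35, adjusted p = 0.742, quasi-likelihood test). Per exon length, the *IRT1* level was 4.53 and 8.91 times that of *IRT2* in Ws and 41.4 and 38.2 times in *atx1setm*. All the 50-base windows of both genes occurred once in the reference genome by exact match (100%). *FRO4* (AT5G23980) and *FRO5* (AT5G23990), reductase genes linked to copper reduction, are 4241 bases apart on chromosome 5. *FRO4* was at 11.4 and 11.8 CPM in Ws and at 6.67 and 7.82 CPM in *atx1setm*, and *FRO5* was at 0.852 and 0.693 CPM in Ws and at 0.493 and 0.571 CPM in *atx1setm*. Both were lower in both mutant libraries. The log2 fold change was −0.68 (SE 0.25, adjusted p = 0.488) for *FRO4* and −0.54 (SE 0.40, adjusted p = 0.726) for *FRO5* in the quasi-likelihood test. With a library left out, that of *FRO4* ranged from −0.78 (without *atx1setm* replicate 2) to −0.57 (without *atx1setm* replicate 1). *FRO4* did not pass by DESeq2, by the exact test or in either fit of RPKM, and passed in 8 of 15 alternatives in all. Of their 50-base windows, 94.4% and 94.2% were unique, so some reads of the pair may be missing or exchanged. Per exon length, *FRO4* was at 11.7 and 14.9 times *FRO5* in Ws and at 11.8 and 12 times in *atx1setm*, and *FRO2* was at 2.47 and 4.15 times *FRO4* in Ws and at 26.9 and 19.9 times in *atx1setm*. *NRAMP1* (AT1G80830), a metal transporter gene best known for manganese uptake, was at 71.8 and 85.6 CPM in Ws and at 88.6 and 125 CPM in *atx1setm*. The groups did not overlap, but the log2 fold change of 0.44 (SE 0.28, adjusted p = 0.694, quasi-likelihood test) did not pass.

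**Figure D2:**
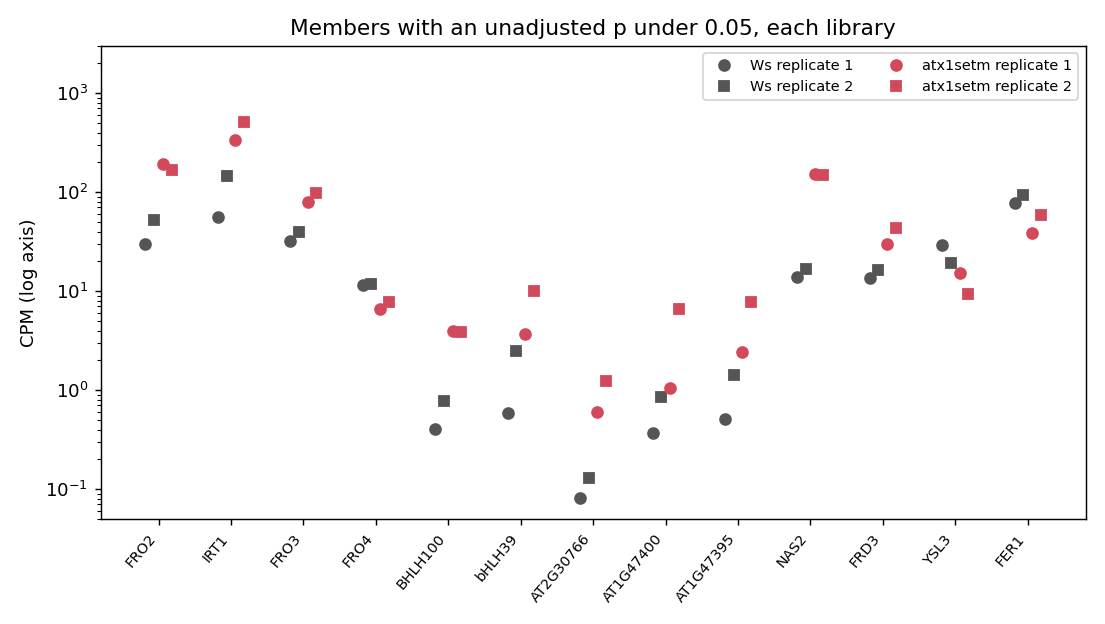
CPM on a log axis of the 13 members with an unadjusted p under 0.05, in each of the 4 libraries (grey: Ws, red: *atx1setm*; circles: replicate 1, squares: replicate 2). In each gene the red and grey points do not overlap, and *NAS2* is at 14.0 and 16.8 CPM in Ws and at 154 and 150 CPM in *atx1setm*.

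Together the 7 uptake genes summed to 214 and 351 CPM in Ws and to 714 and 925 CPM in *atx1setm*, of which *IRT1* was the largest share in each mutant library. *IRT1* and *FRO2* are known for expression in the root epidermis, whose hair and hairless markers were lower in the same mutant libraries (67.3 and 59.0 CPM in Ws and 31.0 and 32.9 CPM in *atx1setm* for the 3 hairless markers). The uptake sum was higher where these markers were lower, but the uptake genes were split. *IRT2* (−0.41), *FRO4* (−0.68) and *FRO5* (−0.54) had log2 fold changes below 0, as the markers had. The part of epidermal cell number in the values was not tested.

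Of the 13 regulators, 2 were higher and 11 did not pass. *FIT* (AT2G28160), which encodes the bHLH activator of *IRT1* and *FRO2*, was at 26.9 and 37.6 CPM in Ws and at 30.5 and 42.4 CPM in *atx1setm*. The genotypes overlapped, with a log2 fold change of 0.18 (adjusted p = 0.847, SE 0.31, quasi-likelihood test), which was −0.05 without Ws replicate 1 and −0.06 without *atx1setm* replicate 2. Per exon length, the *IRT1* level was 1.66 and 3.08 times that of *FIT* in Ws and 8.85 and 9.63 times in *atx1setm*. The 4 genes of subgroup Ib encode the partners of FIT. *bHLH38* (AT3G56970) was at 0.548 and 2.59 CPM in Ws and at 4.18 and 8.68 CPM in *atx1setm*. *bHLH39* (AT3G56980), its neighbour on chromosome 3 at 1395 bases, was at 0.588 and 2.46 CPM in Ws and at 3.69 and 10.1 CPM in *atx1setm*. *BHLH100* (AT2G41240) was at 0.406 and 0.770 CPM in Ws and at 3.96 and 3.90 CPM in *atx1setm*. In all 3 genes both mutant libraries exceeded both WT libraries, and in *bHLH38* and *bHLH39* the WT libraries also differed more than 4-fold from each other. The log2 fold change was 2.04 (SE 0.81, adjusted p = 0.518) for *bHLH38*, 2.18 (SE 0.84, adjusted p = 0.505) for *bHLH39* and 2.75 (SE 0.44, adjusted p = 0.140) for *BHLH100* in the quasi-likelihood test. With a library left out, *bHLH38* ranged from 1.31 (without Ws replicate 1) to 3.55 (without Ws replicate 2), *bHLH39* ranged from 1.30 (without *atx1setm* replicate 2) to 3.54 (without Ws replicate 2) and did not pass without Ws replicate 1 (1.48), whereas *BHLH100* stayed between 2.35 and 3.28 and passed in each case. *BHLH101* (AT5G04150), the remaining member, was at 1.40 and 0.872 CPM in Ws and at 1.35 and 1.32 CPM in *atx1setm*. Its groups overlapped (log2 fold change 0.23, SE 0.40, adjusted p = 0.847, quasi-likelihood test; −0.05 without Ws replicate 2). In RefSeq, *bHLH38* shares 386 bases with *PIP5K4* (AT3G56960) and *BHLH101* shares 79 bases with *GLU1* (AT5G04140), each on the opposite strand. The coordinates of the gene table do not hold these overlaps, and any part of such reads in the counts was not tested. The per-length ratio of *bHLH38* to *bHLH39* lay between 0.798 and 1.05 over the 4 libraries, while that of *BHLH100* to *BHLH101* was 0.269 and 0.820 in Ws and 2.73 in each *atx1setm* library.

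The sequence before the starts of these 4 genes is shown because only part of the subgroup passed and because bHLH proteins bind the G-box, CACGTG, a palindrome that reads alike on both strands. Each line gives the 250 bases before the RefSeq gene start on the gene's own strand, from the genome of TAIR10.1, whose nuclear chromosomes have the sequence of TAIR10, with any G-box in capitals.

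bHLH38 (chr3:21085246-21085495, minus strand): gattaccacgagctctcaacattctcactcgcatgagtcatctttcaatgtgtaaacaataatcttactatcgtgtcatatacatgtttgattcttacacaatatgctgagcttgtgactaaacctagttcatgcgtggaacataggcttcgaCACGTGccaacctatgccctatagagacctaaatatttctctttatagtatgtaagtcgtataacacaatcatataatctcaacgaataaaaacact

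bHLH39 (chr3:21087711-21087960, minus strand): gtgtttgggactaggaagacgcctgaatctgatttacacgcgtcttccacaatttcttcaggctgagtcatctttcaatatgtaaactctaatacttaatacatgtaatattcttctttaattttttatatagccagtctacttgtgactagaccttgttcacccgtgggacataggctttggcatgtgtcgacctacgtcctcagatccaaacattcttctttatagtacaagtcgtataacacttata

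BHLH100 (chr2:17199455-17199704, minus strand): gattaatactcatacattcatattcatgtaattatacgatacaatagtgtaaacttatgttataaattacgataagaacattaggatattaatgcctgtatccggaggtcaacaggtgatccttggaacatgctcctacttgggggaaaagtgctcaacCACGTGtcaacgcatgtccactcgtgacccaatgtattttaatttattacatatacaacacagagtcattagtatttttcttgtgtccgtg

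BHLH101 (chr5:1139634-1139883, minus strand): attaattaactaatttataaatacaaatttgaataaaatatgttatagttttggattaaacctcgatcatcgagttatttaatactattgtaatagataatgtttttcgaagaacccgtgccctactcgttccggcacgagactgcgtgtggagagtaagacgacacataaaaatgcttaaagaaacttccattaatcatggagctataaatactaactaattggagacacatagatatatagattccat

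The letters CACGTG began 97 bases before the start of *bHLH38* and 91 bases before that of *BHLH100*, and these windows of *bHLH39* and *BHLH101* did not hold them. Over all members, 7 of 43 windows held a G-box (*bHLH38*, *BHLH100*, *BTS*, *OPT3*, AT3G58060, *FER3* and *FER4*), against 6.49% of the 27438 windows of the same length in the genome, and the *BTS* window held it at 3 places (146, 124 and 70 bases before the start). The 7 genes with the letters included genes with a high log2 fold change (*BHLH100*, 2.75) and with a negative one (*FER3*, −0.26). The looser E-box CANNTG, which includes the G-box, occurred in 28 of 43 member windows and in 55.3% of all windows, and the letters GTAC, the core of copper response elements, in 19 of 43 and in 34.3%. A match of letters is a description of the window, not of binding. Windows and distances depend on the RefSeq starts, and only 3 of 43 members had the same start and end in the gene table.

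The upstream regulators and the ligases showed no member past an unadjusted p of 0.05. *ILR3*, *bHLH104* and *bHLH34* (subgroup IVc, AT5G54680, AT4G14410 and AT3G23210) had log2 fold changes of 0.30 (SE 0.32), 0.31 (SE 0.23) and 0.26 (SE 0.28), and *bHLH121* (AT3G19860) had −0.19 (SE 0.28). *PYE* (AT3G47640), a bHLH repressor of iron genes, had 0.09 (SE 0.24) and *BTS* (AT3G18290) −0.34 (SE 0.31). Each of these 6 values lay within 1.5 SE of 0. Scaled by library totals in place of TMM, which moved the median of all genes to −0.10, the value of *PYE* was −0.02. The 2 BTS-related loci, which RefSeq annotates as zinc ion binding proteins, varied widely between the *atx1setm* libraries. AT1G74770 was at 32.9 and 31.8 CPM in Ws and at 57.9 and 28.4 CPM in *atx1setm*, and AT1G18910 at 65.3 and 36.6 CPM in Ws and at 54.9 and 15.6 CPM in *atx1setm*. Their mutant libraries fell on either side of the WT or overlapped it, and the sign turned when a mutant library was left out, to −0.19 for AT1G74770 without replicate 1 and to 0.13 for AT1G18910 without replicate 2. In RefSeq, AT1G74770 shares 471 bases with AT1G74750 on the opposite strand, an overlap that the coordinates of the gene table do not hold. The 13 regulators had a median log2 fold change of 0.26 and summed to 390 and 383 CPM in Ws and to 421 and 417 CPM in *atx1setm*, and the subgroup Ib genes made up a small share of the sum in each library.

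**Figure D3:**
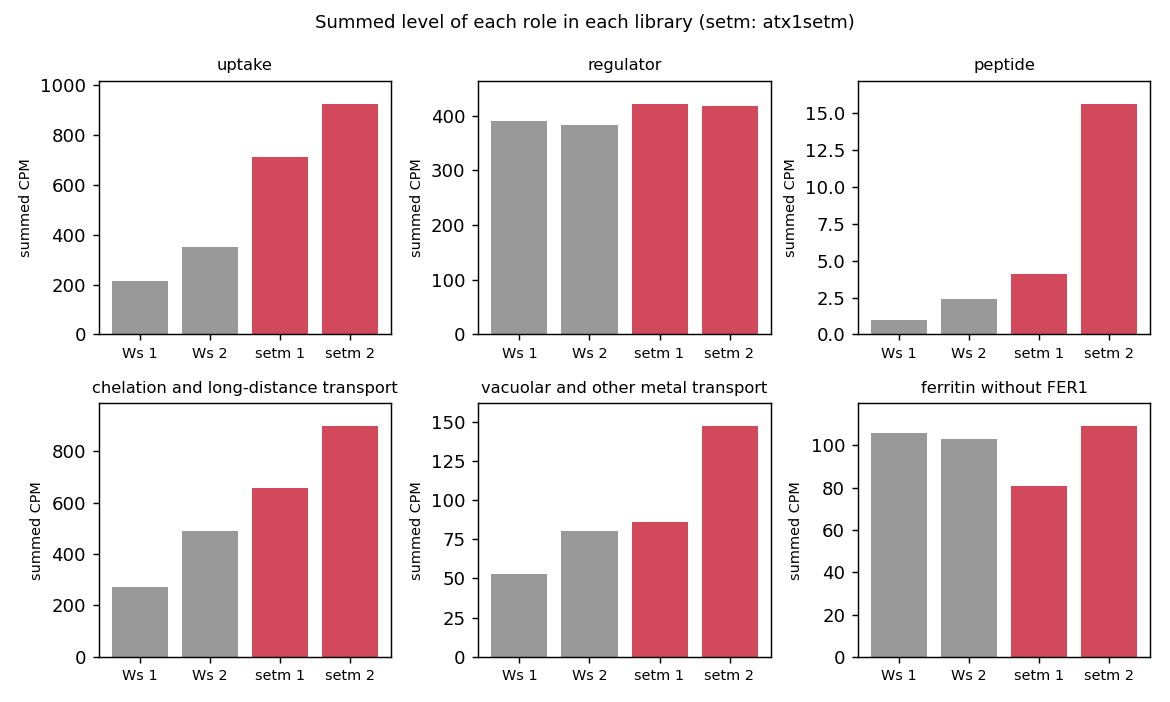
Summed CPM of the members of each role in each library (grey bars: Ws replicates 1 and 2, red bars: *atx1setm* replicates 1 and 2, each panel with its own axis from 0). Uptake (214 and 351 against 714 and 925 CPM) and chelation (273 and 490 against 655 and 896 CPM) were higher in both mutant libraries, the regulators were nearly level (383 to 421 CPM), and the 3 ferritins other than *FER1* overlapped (106 and 103 against 80.7 and 109 CPM). *FER1* is left out because its counts hold only reads across exon junctions.

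Within chelation and long-distance transport, the genotypes were best separated by *NAS2* (AT5G56080). It encodes a nicotianamine synthase, which makes the metal chelator nicotianamine, and was at 14.0 and 16.8 CPM in Ws and at 154 and 150 CPM in *atx1setm*. The mutant libraries lay close together and far above the WT, with a log2 fold change of 3.30 (adjusted p = 0.0837, SE 0.25, quasi-likelihood test). This was the smallest adjusted p of the members, and the value stayed between 3.18 and 3.45 with any library left out. *NAS1* (AT5G04950), the most abundant member per exon length in both genotypes apart from *FER1*, which is not compared here, was at 144 and 313 CPM in Ws and at 320 and 456 CPM in *atx1setm*, and *NAS4* (AT1G56430) at 4.89 and 12.9 CPM in Ws and at 14.0 and 23.4 CPM in *atx1setm*. In both genes the upper WT library came close to the lower mutant library, and the log2 fold changes of 0.76 (SE 0.46, adjusted p = 0.685) and 1.08 (SE 0.54, adjusted p = 0.640) did not pass in the quasi-likelihood test. With a library left out they ranged from 0.31 (without Ws replicate 1) to 1.44 (without Ws replicate 2) for *NAS1* and from 0.54 to 1.94 without the same libraries for *NAS4*. *NAS3* (AT1G09240) counted 0 and 4 reads in the WT against 7 and 14 reads in the mutant and was not tested. Per exon length, *NAS2* was at 0.126 and 0.0693 times the level of *NAS1* in Ws and at 0.622 and 0.425 times in *atx1setm*.

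*FRD3* (AT3G08040), the citrate efflux carrier needed to load iron into the xylem, was at 13.5 and 16.5 CPM in Ws and at 30.2 and 43.5 CPM in *atx1setm*. Both mutant libraries were higher, with a log2 fold change of 1.29 (adjusted p = 0.245, SE 0.29, quasi-likelihood test), but did not pass without Ws replicate 1 (1.16). *OPT3* (AT4G16370), a phloem transporter that takes part in the iron signal from shoot to root, was at 37.5 and 69.4 CPM in Ws and at 78.2 and 170 CPM in *atx1setm*. These groups did not overlap but spread widely (log2 fold change 1.22, SE 0.50, adjusted p = 0.536, quasi-likelihood test), with 0.56 without *atx1setm* replicate 2 and 1.73 without Ws replicate 2. *YSL3* (AT5G53550), a carrier of metal-nicotianamine complexes, went the other way, at 29.0 and 19.1 CPM in Ws and at 15.4 and 9.33 CPM in *atx1setm*. Its log2 fold change of −0.96 (SE 0.37, adjusted p = 0.507, quasi-likelihood test) did not pass without Ws replicate 1 (−0.63), without *atx1setm* replicate 2 (−0.62), with library totals or in either fit of RPKM. The related *YSL1* (AT4G24120) and *YSL2* (AT5G24380) had −0.10 (SE 0.36) and 0.39 (SE 0.28), and *FPN1* (AT2G38460), a ferroportin gene that RefSeq lists as *IREG1*, had −0.49 (SE 0.28). Of the 9 tested genes of this role, 2 were thus higher, 1 was lower and 6 did not pass. The xylem and phloem markers, tissues in which several of these carriers work, had 0 members past the test, and their summed levels overlapped between the genotypes for xylem (199 and 227 CPM in Ws, 205 and 256 CPM in *atx1setm*) and were close for phloem (104 and 113 CPM in Ws, 104 and 89.3 CPM in *atx1setm*).

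None of the 5 tested genes of vacuolar and other metal transport passed, although 4 had a positive log2 fold change. *MTP3* (AT3G58810), a carrier of zinc into the vacuole that RefSeq lists as *MTPA2*, was at 26.3 and 51.3 CPM in Ws and at 58.7 and 94.7 CPM in *atx1setm* (log2 fold change 0.99, SE 0.43, adjusted p = 0.567, quasi-likelihood test). *COPT2* (AT3G46900), a copper transporter gene, was at 3.37 and 7.85 CPM in Ws and at 7.07 and 25.1 CPM in *atx1setm* (log2 fold change 1.52, SE 0.73, adjusted p = 0.611, quasi-likelihood test). The mutant libraries lay above the WT in *MTP3*, whose value was 0.58 without Ws replicate 1 and 1.56 without Ws replicate 2. They overlapped the WT in *COPT2*, whose value was 0.35 without *atx1setm* replicate 2. AT3G58060, a cation efflux family gene, had 1.12 (SE 0.64), *FPN2* (AT5G03570; *IREG2* in RefSeq), a metal carrier of the vacuole, 0.69 (SE 0.34) and *ZIF1* (AT5G13740), which moves nicotianamine into vacuoles, −0.21 (SE 0.25). *VIT1* (AT2G01770), a vacuolar iron carrier gene, had 2 and 0 reads in Ws and 0 reads in both *atx1setm* libraries, too few for a comparison.

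Of the 4 genes for ferritins, the iron storage proteins, 1 was lower and 3 did not pass. At *FER1* (AT5G01600) each counted read spanned an exon junction (100% of its exon reads in each library), against 15.2% to 19.6% at the other ferritin genes. The span of the gene shares 2061 bases with that of AT5G01595, a locus with 0 reads in each library, by the coordinates of the gene table. The level of *FER1* is therefore too low to compare with that of other genes, and its fold change is one of junction reads. By these reads *FER1* was at 77.3 and 94.3 CPM in Ws and at 39.0 and 58.5 CPM in *atx1setm*. *FER3* (AT3G56090) was at 76.1 and 70.7 CPM in Ws and at 52.9 and 69.7 CPM in *atx1setm*, and *FER4* (AT2G40300) at 23.2 and 23.3 CPM in Ws and at 18.5 and 22.3 CPM in *atx1setm*. Both mutant libraries were below both WT libraries in all 3 genes, by a narrow margin in *FER3* and *FER4*. The same held for 20.0% of all genes tested. The log2 fold change was −0.82 (SE 0.30, adjusted p = 0.474) for *FER1*, −0.26 (SE 0.25, adjusted p = 0.759) for *FER3* and −0.19 (SE 0.24, adjusted p = 0.795) for *FER4* in the quasi-likelihood test. With a library left out, the log2 fold change of *FER1* ranged from −1.12 (without *atx1setm* replicate 2) to −0.55 (without *atx1setm* replicate 1). *FER1* passed in 12 of 15 alternatives. It did not pass without Ws replicate 1 (−0.95), without Ws replicate 2 (−0.65) or without *atx1setm* replicate 1. *FER2* (AT3G11050), known from seeds, was at 6.75 and 8.75 CPM in Ws and at 9.30 and 16.6 CPM in *atx1setm* (log2 fold change 0.74, SE 0.37, adjusted p = 0.638, quasi-likelihood test), the only ferritin with higher mutant libraries. Summed without *FER1*, the ferritins were at 106 and 103 CPM in Ws and at 80.7 and 109 CPM in *atx1setm*, which overlapped.

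The order by level of the 42 members other than *FER1* changed with these differences. Per kilobase of exon, *NAS1* led in both genotypes (means of 183 CPM per kb in Ws and 311 in *atx1setm*). In Ws it was followed by *ILR3* (88.3) and *IRT1* (68.2), and in *atx1setm* by *IRT1* (288) and *NAS2* (158), which ranked 13 of 42 in Ws. At the other end, AT2G30766 ranked 40 in Ws (0.174 CPM per kb), above the untested *NAS3* and *VIT1*. Neighbours in this order, such as *IRT1* and *FER3* (64.7) in Ws, did not differ beyond the spread between the WT libraries of *IRT1* (37.9 and 98.5 CPM per kb). Reads in introns made up 0.195% to 0.527% of the exon and intron reads of the members, against 1.02% to 1.20% over all loci.

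**Figure D4:**
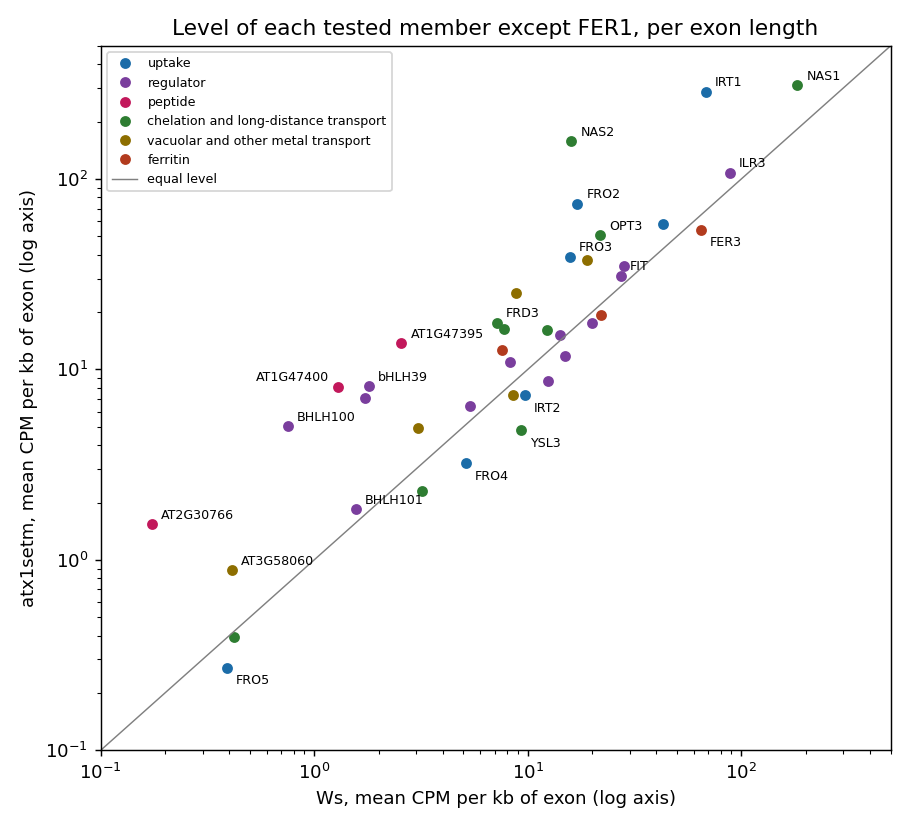
Mean CPM per kilobase of exon of each tested member except *FER1* in Ws (x axis, log) and in *atx1setm* (y axis, log), coloured by role, with the line of equal level. *NAS2* (16.0 against 158) and *IRT1* (68.2 against 288) lie above the line, *YSL3* (9.31 against 4.78) below it, and *ILR3* (88.3 against 108) near it.

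Other genes of iron handling had a median close to that of all genes tested. Of 36 further iron genes, 31 were tested, with a median log2 fold change of −0.05. At an unadjusted p under 0.05 in the quasi-likelihood test, 3 were higher in *atx1setm* and 2 were lower. The shares over all genes tested were 4.93% and 4.78%. *MYB10*, which encodes a MYB factor of the iron response, counted 34 and 59 reads in the WT against 138 and 204 reads in the mutant (log2 fold change 1.91, SE 0.55, adjusted p = 0.343). *MYB72*, the related gene, counted 1 and 0 reads in the WT against 13 and 14 reads in the mutant (adjusted p = 0.193). *AHA7*, a proton pump gene, was at 55.7 and 50.0 CPM in Ws and at 23.8 and 11.7 CPM in *atx1setm* (log2 fold change −1.58, SE 0.40, adjusted p = 0.293). The MYB pair was higher and *AHA7* was lower in both mutant libraries. The reductase gene *FRO1* (0.95, SE 0.35) and the carrier gene *YSL4* (−0.62, SE 0.24) also passed, in opposite directions. *FRO1* did not pass with any library left out (0.91 to 1.01), *YSL4* passed only without *atx1setm* replicate 2 (−0.70), and *MYB10* did not pass without Ws replicate 1 (1.44). The log2 fold change of *AHA7* was −2.18 without *atx1setm* replicate 1 and −1.13 without *atx1setm* replicate 2, and it passed in each case. Of 11 tested genes of zinc handling and 10 of copper handling, 0 passed in either direction. At the shares over all genes, few would pass in lists this short. The median log2 fold changes of the zinc and copper genes were 0.08 and 0.34. The copper median was near the 0.42 of the members, with 8 of the 10 copper genes above 0.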

How the data were processed

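RNA from whole roots of 2 Ws and 2 *atx1setm* replicates was sequenced as single-end reads of 50 cycles. The submitters' processing notes name FastQC and TAIR10, and per the methods the authors analysed read quality in CLC Genomics Workbench and mapped reads to TAIR10. The tool and settings of mapping and counting, and any use of strand, were not given in the sources used here. The deposited exon, intron and gene reads are raw counts by the authors. The deposited RPKM values are the authors' exon reads per kilobase and per mapped reads. The table also holds the authors' fold change, p-value and FDR for this comparison, which were not used, and 49 per-sample columns were not used here. By their own test, at a fold change of at least 3 and an FDR of at most 0.01, the authors list *IRT1*, *FRO2*, *BHLH100*, *NAS2* and AT2G30766 as higher in *atx1setm*.

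Exon reads of the 20714 genes passing filterByExpr were scaled by TMM (factors 1.06 and 1.01 for Ws, 1.09 and 0.855 for *atx1setm*) and tested between genotypes in edgeR 4.0.16 (R 4.3.3) by its quasi-likelihood test in the legacy form, adjusted by the Benjamini-Hochberg method. The biological coefficient of variation was 0.303. The fit was repeated with a replicate block, by the exact test, by DESeq2 1.42.0, with other scalings and filters, with gene reads, by limma-trend (limma 3.58.1) on log2(RPKM + 0.5) or log2(RPKM + 0.1), and without each library in turn. A fit without 1 library keeps a single library of that genotype, so its spread comes from the other genotype. Whether a gene passes there depends on which libraries remain, and not only on its fold change. The tests were also run on counts simulated from these data, and the outcome is not given here. The labels call the replicates biological, but whether they were grown separately is not stated, so p-values measure the spread between these libraries. The labels and the methods differ in seedling age and medium. Reads of Ws roots were mapped to a reference of another accession, and the effect on the counts was not tested.

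The members and the gene lists were chosen with earlier results of these data known. Members with an unadjusted p under 0.05 and members of small families are given in every library, and genes outside the members are named from the lists by p. Sequences were read from the RefSeq genome of TAIR10.1, in which 28009 of 28496 nuclear loci were found. Of the 43 members, 13 had the same start or end in RefSeq as in the gene table, and 3 had both. The printed windows follow the RefSeq starts, whereas the counts follow the gene models of the gene table. Gene symbols follow RefSeq and its synonyms where it gives one.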

Additional observations from a re-analysis of the deposited data

How the results depend on the processing

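The 41 tested members kept their sign and their side of an unadjusted p of 0.05 in 530 of the values recomputed under the alternatives, passed newly in 50, lost the call in 22 and turned in sign in 12. *NAS2*, *FRO2*, *BHLH100* and AT1G47395 passed under each of 15 alternatives and AT2G30766 under each of 14. The count of higher members (10) became 19 with a replicate block, and 6 to 21 with a library left out (6 without Ws replicate 1). The count of lower members (3) became 1 with log2(RPKM + 0.5) and 1 with log2(RPKM + 0.1), and 0 to 3 with a library left out. The count at an adjusted p under 0.05 (0) became 22 with a replicate block, 10 by DESeq2, 7 by the exact test, 1 without a filter on low counts, and 1 to 19 with a library left out. The cause was not tested.

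The same-numbered replicates of the genotypes share a number in the labels, which name no pairing. Their deviations correlated at 0.746 over 20714 genes, and with 2 pairs this does not establish a pairing. With the replicate block, 18 members were higher and 4 lower at an adjusted p under 0.05, beside 1838 and 2050 of all 20714 genes tested. Of the members, 61.0% were higher in replicate 2 of both genotypes, beside 40.8% of all genes tested.

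With a library left out, the median log2 fold change was 0.19 to 0.67 for uptake, 0.20 to 0.42 for regulators, 1.38 to 3.46 for IMA loci, 0.31 to 1.44 for chelation and 0.35 to 1.56 for vacuolar transport. The regulator median was 0.16 with library totals, 0.15 with log2(RPKM + 0.5) and 0.16 with log2(RPKM + 0.1), and *PYE* turned to −0.02, −0.01 and −0.01 there. These scalings moved the median of all genes to −0.10, −0.11 and −0.13. Turns of sign with a library left out gave ranges of −0.06 to 0.45 for *FIT*, −0.05 to 0.62 for *BHLH101*, −0.01 to 0.21 for *PYE*, −0.10 to 0.62 for *ILR3*, −0.43 to 0.04 for *bHLH121*, −0.19 to 0.86 for AT1G74770, −1.71 to 0.13 for AT1G18910 and −0.21 to 0.03 for *YSL1*. The 2 libraries per genotype limit the precision, and counts under 10 in Ws limit AT2G30766, *MYB72*, *NAS3* and *VIT1*.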
